A study of Mus musculus with 5 samples.

Results

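Pericytes are the mural cells of small vessels: they sit within the capillary basement membrane, are held there by PDGFB from the endothelium acting on PDGFRβ, and receive Notch signals from the endothelium through NOTCH3. In the lung they share the alveolar wall with capillary endothelium and alveolar fibroblasts, and they are known as a source of vessel stability and of contractile and matrix-producing cells after injury. Here they were described in single-cell RNA-seq of adult mouse lung from mice whose alveolar type 2 (AT2) cells lacked β1 integrin and from their controls. A pericyte was a barcode with at least 700 genes and 0.1 to 15% mitochondrial transcripts that carried at least 3 transcripts (unique molecular identifiers, UMIs) of Cox4i2, Higd1b, Pdgfrb and Notch3 together, at least 1 of them from Cox4i2 or Higd1b, and none of Cdh5, Pecam1, Epcam, Ptprc, Tcf21, Pi16 or Dpt. The members were thus chosen by measured UMIs of these 11 genes in all 5 libraries, and the levels of these genes are given as a description. This rule gave 272 pericytes among 29500 cells past the filter on genes and mitochondrial transcripts, or 0.922%.

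The study made 5 libraries, 1 for each condition. At 7 days there were β1 fl/fl lungs after LPS, β1 AT2-KO lungs (labelled Itgb1 iKO) after LPS and β1 AT2-KO lungs after PBS. At 21 days there were β1 fl/fl and β1 AT2-KO lungs after LPS, and EPCAM-positive cells had been added to both. Every mouse carried the floxed Itgb1 allele. The β1 AT2-KO mice also carried SP-C rtTA and Tet-O-Cre, which act in AT2 cells after doxycycline, and the controls were littermates without these transgenes that also received doxycycline. LPS was given once into the trachea at about 3 months of age, and viable CD45- Ter119- cells were sorted from digested lung. Each library held 3 mice told apart by antibody hashtags. The libraries gave 38, 60, 38, 73 and 63 pericytes, and lists of 5 values below keep this order: day 7 LPS β1 fl/fl, day 7 LPS β1 AT2-KO, day 7 PBS β1 AT2-KO, day 21 LPS β1 fl/fl and day 21 LPS β1 AT2-KO.

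Pericytes held 76494 to 148466 UMIs per library, with medians of 2544, 1761, 1892.5, 1911 and 1890 UMIs per cell, and no pericyte barcode was shared between libraries. Levels are given as UMIs summed over the pericytes of a library or mouse per 1000000 of their UMIs (CPM), and 3 UMIs in a library corresponded to 20.2 to 39.2 CPM. Each condition was 1 library, so library and condition cannot be told apart, and intervals within a library cover counting error only. The day 7 libraries also differed in sex: Xist, the transcript of the inactive X chromosome, stood at 316, 0 and 196 CPM in their pericytes. Of 5 sex genes, Xist and Y-linked ones, 4 were at 0 in day 7 LPS β1 fl/fl. In day 7 PBS β1 AT2-KO only 1 was at 0 and the sum was 288 CPM, so Y-linked transcripts stood beside Xist there. Sex therefore cannot be told apart from genotype between the LPS libraries of day 7, nor from treatment between the LPS and PBS libraries of β1 AT2-KO. At day 21 the 1 sex gene with at least 10 UMIs in both libraries had a log2 ratio of -0.56 (β1 AT2-KO over β1 fl/fl). The ratio was -1.32 in endothelial cells, and the part of sex in that comparison was not tested.

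Of the genes that chose the cells, Cox4i2 was seen in 265 of 272 pericytes, Pdgfrb in 238, Higd1b in 213 and Notch3 in 206, and 143 cells carried all 4. At the edge of the rule, 9 pericytes had exactly 3 marker UMIs and 9 cells met every other term with 2. The exclusion of endothelial, epithelial and immune transcripts removed 318 cells, and the exclusion on the fibroblast genes Tcf21, Pi16 and Dpt removed a further 244. Those 244 cells had Cox4i2 at 4286 CPM, against 4255 CPM in the pericytes kept. They also carried fibroblast transcripts: Mfap4, an elastic-fibre glycoprotein, stood at 683 against 52.4 CPM, and the collagen gene Col1a1 at 2247 against 650 CPM. Results are therefore given for the pericytes kept, and for the day 21 comparison also with these cells included.

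The label was checked on pericyte genes that the rule did not use. Periostin (Postn), a secreted matrix protein, stood at 8385, 10273, 10210, 7887 and 6662 CPM in the 5 libraries and at most at 34 CPM in endothelial cells. The potassium channel Kcnk3 stood at 1024, 896, 1085, 1030 and 949 CPM, and its endothelial level did not exceed 3 CPM. Vitronectin (Vtn), a plasma and matrix adhesion protein, had 324 to 654 CPM, the NG2 proteoglycan gene Cspg4 357 to 461 CPM, and Mcam (CD146) 497 to 674 CPM. Some genes used to mark pericytes in other organs were scarce: Rgs5 had 23 CPM over all pericytes, the potassium-channel subunits Kcnj8 and Abcc9 36 and 34 CPM, and Steap4 and Ebf2 were at 0 in every library. Summed over the 25 genes of the pericyte list, the level was 23415 to 27375 CPM in pericytes and 1213 to 1781 CPM in endothelial cells. Smooth muscle cells had 1704 to 4068 CPM and alveolar fibroblasts 1134 to 2001 CPM. Smooth muscle cells had Postn at 1657 CPM over all libraries. Some listed genes were higher in them than in pericytes, among them Kcnj8 at 157, Abcc9 at 65 and P2ry14 at 299 against 218 CPM. The summed level of 15 endothelial markers was 459 to 1595 CPM in pericytes and 22107 to 30054 CPM in endothelial cells. This gap is no check of the label, since the rule left out cells with Cdh5 or Pecam1. The endothelial cells had to carry Cdh5 or Pecam1 and no transcript of Cox4i2, Higd1b, Pdgfrb or Notch3.

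**Figure D1:**
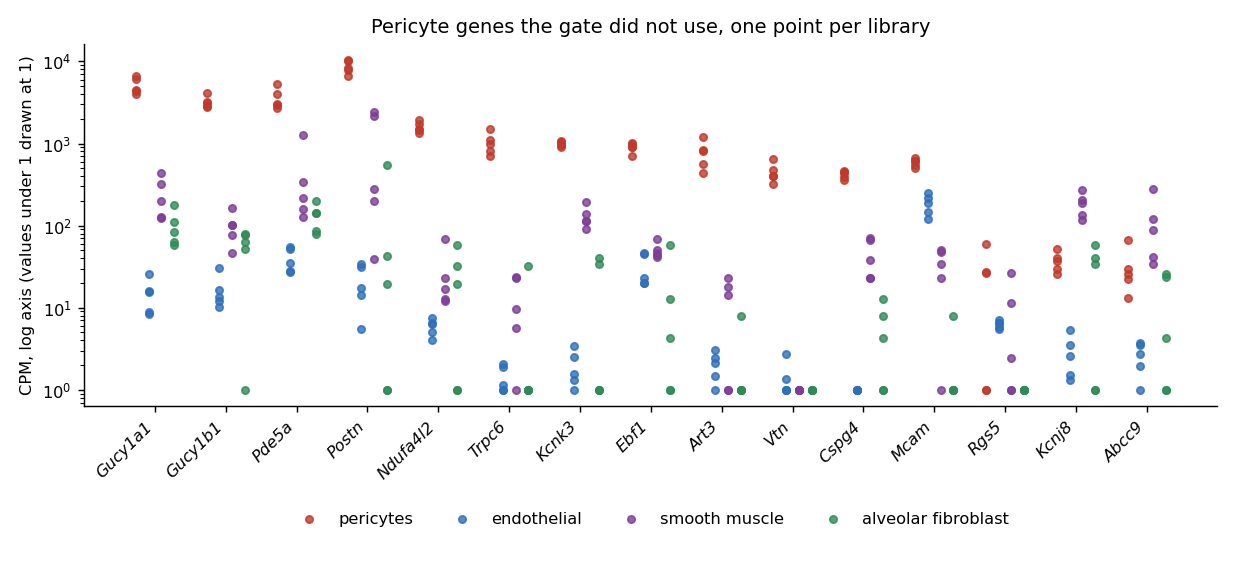
Level of pericyte genes that the rule did not use, in CPM on a log axis, with 1 point per library for pericytes, endothelial cells, smooth muscle cells and alveolar fibroblasts. Postn and Kcnk3 lay near the same level in all 5 pericyte libraries, and Postn ranged from 6662 to 10273 CPM there.

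Genes for the nitric oxide and cyclic GMP pathway, which relaxes vessels, were high in every pericyte library. Gucy1a1 and Gucy1b1 encode the subunits of soluble guanylate cyclase, the nitric oxide receptor. Gucy1a1 stood at 4410, 4532, 4040, 6116 and 6595 CPM and Gucy1b1 at 2781, 2867, 3203, 3152 and 4068 CPM, with endothelial levels of at most 25 and 31 CPM. Pde5a, the phosphodiesterase that breaks down cyclic GMP and is the target of sildenafil, stood at 2926, 3069, 2693, 4041 and 5343 CPM. For these genes both day 21 libraries were higher than the day 7 libraries with the exception of Gucy1b1, where day 7 PBS β1 AT2-KO and day 21 LPS β1 fl/fl were close. No test compared the days, since the day 21 libraries were made with added EPCAM-positive cells. The angiotensin receptor gene Agtr1a had 179 to 245 CPM in pericytes and at most 2 CPM in endothelial cells.

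Trpc6, a cation channel of contractile vessel cells, separated pericytes from the other cells described. It stood at 699, 993, 811, 1098 and 1490 CPM in pericytes, at most at 2 CPM in endothelial cells and at most at 24 CPM in smooth muscle cells. It was seen in 68.4 to 84.2% of the pericytes of a library. The other leading pericyte genes included Lipg, endothelial lipase, at 1005 CPM over all pericytes and 12.4 CPM in the highest other cell type, and Pdzd2 at 4304 against 130 CPM. These genes were named after their values were seen, and because the rule chose the cells they are a description.

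The 250 bases upstream of the RefSeq start (build GRCm38.p6) are shown for Trpc6, which marks the pericytes, and for Actc1, Acta2 and Junb, whose levels differ between libraries in the results below. The search was for the CArG box, the 10-base site of serum response factor, on both strands; it reads the same on either strand. A box is in capitals. The Trpc6 window is chr9:8543892-8544141 on the plus strand, that of Actc1 is chr2:114052876-114053125 on the minus strand, that of Acta2 is chr19:34255374-34255623 on the minus strand and that of Junb is chr8:84978749-84978998 on the minus strand.
Trpc6: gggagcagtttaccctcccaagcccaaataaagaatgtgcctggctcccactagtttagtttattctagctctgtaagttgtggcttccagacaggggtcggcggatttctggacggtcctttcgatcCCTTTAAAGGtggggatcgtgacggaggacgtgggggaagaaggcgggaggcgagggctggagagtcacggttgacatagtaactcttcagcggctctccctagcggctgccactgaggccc
Actc1: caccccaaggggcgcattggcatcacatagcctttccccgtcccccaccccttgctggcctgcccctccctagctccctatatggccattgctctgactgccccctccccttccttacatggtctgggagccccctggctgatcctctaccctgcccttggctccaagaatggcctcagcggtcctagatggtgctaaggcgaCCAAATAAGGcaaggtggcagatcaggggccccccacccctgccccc
Acta2: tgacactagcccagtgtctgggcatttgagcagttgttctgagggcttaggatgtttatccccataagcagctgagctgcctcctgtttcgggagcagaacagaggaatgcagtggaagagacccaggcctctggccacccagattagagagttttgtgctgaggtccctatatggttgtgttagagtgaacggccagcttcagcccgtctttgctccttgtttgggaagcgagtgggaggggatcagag
Junb: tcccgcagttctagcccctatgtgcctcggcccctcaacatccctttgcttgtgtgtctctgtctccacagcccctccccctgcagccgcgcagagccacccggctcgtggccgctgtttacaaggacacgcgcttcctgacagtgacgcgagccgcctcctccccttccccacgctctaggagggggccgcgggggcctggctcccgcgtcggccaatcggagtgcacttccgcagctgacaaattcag
The Trpc6 box began 122 bases before the start and the Actc1 box 47 bases before it, while the windows of Acta2 and Junb held no exact match. An exact match was CC and GG with only A or T between them. Sites with 1 base changed were not counted, such as ccctatatgg and ccttgtttgg in the Acta2 window, so this is not a lack of CArG-like sites. Among all 27025 genes with such a window, 439 held a box (1.62%). It was found in 1 of 16 pericyte genes with a window (Trpc6), in 2 of 13 smooth muscle genes (Actc1 and Myl9) and in 1 of 17 immediate early genes (Zfp36). A match is a description of the letters, not evidence of binding.

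Genes of the basement membrane and of exchange with the endothelium were present in every library. Col4a1, a chain of the basement membrane collagen, stood at 4726, 4383, 3242, 2943 and 3624 CPM, and endothelial cells had 900 to 1800 CPM. Col4a2, its partner chain, stood at 1307 to 2075 CPM and the matrix-binding glycoprotein Sparc at 4457 to 5766 CPM. Angpt1, the TIE2 ligand that stabilises vessels, stood at 384, 455, 510, 539 and 548 CPM and at most at 13 CPM in endothelial cells. Pdgfa, the ligand of PDGFRα on fibroblasts, stood at 433 to 562 CPM and the gap-junction gene Gjc1 at 340 to 626 CPM.

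Cox4i2 and Higd1b, which the rule used, encode isoforms tied to the respiratory chain under low oxygen, and a further such gene, Ndufa4l2, stood at 1331, 1448, 1935, 1731 and 1482 CPM in pericytes and at most at 7 CPM in endothelial cells. The common isoform Cox4i1 was alike in both, at 543 CPM over all pericytes and 630 CPM over endothelial cells. Cell-cycle genes were scarce, with a sum over 20 genes of 80.8 to 589 CPM. The summed level of 30 inflammatory genes was 1482 to 4105 CPM, and Ccl2, Il6 and Saa3 were at 0 in every library. Of 30 interferon genes, 4 could be tested at day 7 and none was called by edgeR in any contrast. Ifitm3, an interferon-induced membrane protein, stood at 1671 CPM over all pericytes and 2192 CPM over endothelial cells. None of the 4 heat-shock genes tested at day 7 or the 2 tested at day 21 was called by edgeR. Over all genes, 1 of 420 was called in each day 7 contrast (0.238%) and 4 of 138 at day 21 (2.9%). The lack of calls in the interferon and heat-shock lists therefore says little about them. The clock, endothelial, adventitial fibroblast, mesothelial and erythroid lists had 0 members with enough counts to be tested by edgeR in any contrast, so nothing can be said of them.

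Itgb1, the floxed gene, was measured in pericytes as a check of the labels, since SP-C rtTA is not designed to act in them. It stood at 1791, 1687, 1543, 1738 and 1667 CPM, and the 12 mice with values overlapped between genotypes. Itga1, the collagen- and laminin-binding partner of β1, stood at 1621, 1882, 2039, 2068 and 2453 CPM against 601 to 692 CPM in endothelial cells. Itga4 stood at 131 to 230 CPM. No member of the integrin list passed the edgeR test in any contrast, where 2 of its 16 genes could be tested. Over all genes edgeR called 1 of 420 in each day 7 contrast (0.238%) and 4 of 138 at day 21 (2.9%).

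Pericytes made up 0.456% of cells past the filter in day 7 LPS β1 fl/fl (95% exact binomial interval 0.323 to 0.626), 0.829% in day 7 LPS β1 AT2-KO (0.633 to 1.07) and 0.438% in day 7 PBS β1 AT2-KO (0.310 to 0.601). At day 21 the shares were 3.28% in β1 fl/fl (2.58 to 4.11) and 2.08% in β1 AT2-KO (1.60 to 2.65). Between mice the day 7 difference was smaller than the spread: singly tagged cells gave 0.460 ± 0.142% (SD, n = 3) in LPS β1 AT2-KO and 0.432 ± 0.343% (SD, n = 3) in LPS β1 fl/fl, with a two-sided exact permutation p of 0.9. PBS β1 AT2-KO mice had 0.160 ± 0.10% (SD, n = 3), all below the LPS β1 AT2-KO mice, and the exact permutation p of 0.1 is the smallest that 3 against 3 mice can give. At day 21 the mice had 0.702 ± 0.316% in β1 AT2-KO and 0.842 ± 0.762% in β1 fl/fl (SD, n = 3 each, exact permutation p = 0.8). Tagging of pericytes was unequal between groups. Singly tagged cells were 71.1, 40.0, 28.9, 13.7 and 22.2% of pericytes in the 5 libraries and 76.3, 73.3, 78.7, 50.3 and 63.3% of all cells. The mouse shares are thus lowered by different amounts in the groups, and the permutation tests do not allow for this. The sign of the library difference turned at day 7 when every cell was thinned to 2000 UMIs, and at day 21 among cells without an Epcam UMI, where the shares were 3.69% in β1 fl/fl and 4.22% in β1 AT2-KO.

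**Figure D2:**
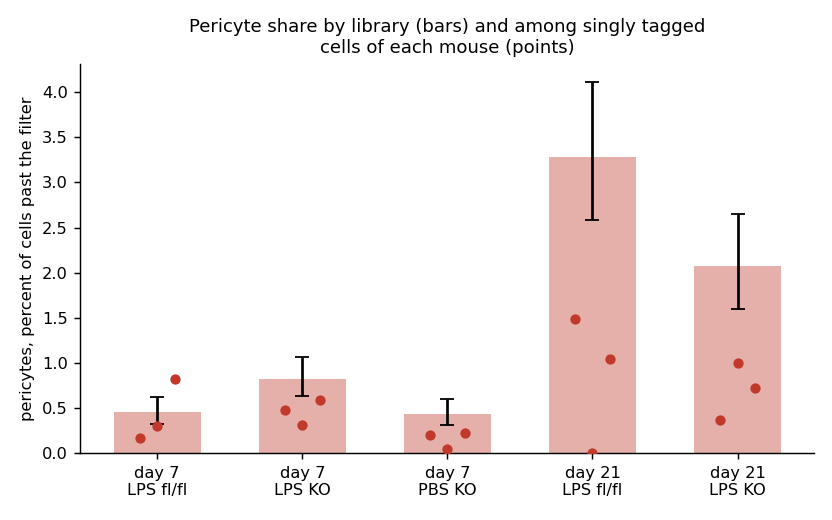
Pericytes as a percent of cells past the filter, for each library (bars, with 95% exact binomial intervals) and among the singly tagged cells of each mouse (points). The day 7 libraries lay between 0.438 and 0.829%, and the points of the LPS groups overlapped.

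Few pericytes carried a hashtag, which bears on every comparison over mice. Of 272 pericytes, 86 carried a single tag, 7 carried several and 179 none (27, 24, 11, 10 and 14 singly tagged by library), while 50.3 to 78.7% of all cells in a library were singly tagged. The median hashtag UMIs of pericytes were 295, 210, 207, 130 and 58, against 707, 782, 986, 372 and 169.5 in endothelial cells. Low tagging was not particular to pericytes: singly tagged cells were 71.1, 40.0, 28.9, 13.7 and 22.2% of pericytes and 54.3, 55.6, 4.0, 15.4 and 26.7% of smooth muscle cells. The transcript of the class I gene H2-K1 stood at 429 CPM in pericytes and 2879 CPM in endothelial cells, and its part in the tagging was not tested. The tagged cells also differed from the others in some genes. In day 7 PBS β1 AT2-KO, Junb stood at 51.1 CPM in the 11 tagged pericytes and at 1862 CPM in the other 27. Tests over mice used the 12 mice with at least 4 singly tagged pericytes: 3, 3 and 2 in the day 7 groups and 2 in each day 21 group.

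Contractile genes varied more between libraries than the pericyte genes did. Acta2, smooth muscle α-actin, stood at 7140, 2419, 1425, 573 and 274 CPM, and smooth muscle cells of the same libraries had 2070 to 7042 CPM. A single cell held 463 of the 837 Acta2 UMIs in day 7 LPS β1 fl/fl, and without it that library stood at 3479 CPM. Tagln, an actin-binding protein of contractile cells, stood at 4529, 1217, 980, 761 and 200 CPM and Myh11, smooth muscle myosin, at 2022, 1000, 314, 411 and 304 CPM. Actc1, cardiac α-actin, stood at 1612 and 90 CPM in the LPS libraries of day 7, at 7 CPM in day 21 LPS β1 AT2-KO and at 0 in the others. In both genotypes of day 7 LPS, Acta2 was seen in 44.7 and 50.0% of pericytes, so these libraries differed less in how many cells were positive than in the level. Summed over 16 smooth muscle genes, pericytes had 24703, 9848, 7347, 6298 and 3772 CPM. The first of these sums includes the cell with 463 Acta2 UMIs. The doublet caller Scrublet marked 1 to 3 pericytes per library, and the part of smooth muscle RNA in these values was not tested.

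Pericytes with several contractile transcripts were a minority. Cells with at least 5 UMIs of Acta2, Tagln, Myh11, Cnn1 and Actg2 together numbered 14 of 38, 19 of 60, 7 of 38, 13 of 73 and 2 of 63 (36.8, 31.7, 18.4, 17.8 and 3.17%). Of these 55 cells, 48 also had Myh11, Cnn1 or Actg2 (11, 17, 6, 12 and 2 by library) and so met the contractile terms used here for smooth muscle cells, from which the Cox4i2 and Higd1b terms set them apart. With each cell thinned to 1000 UMIs the shares were 21.1, 21.7, 15.8, 13.7 and 1.59%. The 3 fitted day 7 LPS β1 fl/fl mice had Acta2 at 0, 19170 and 3577 CPM and the LPS β1 AT2-KO mice at 4278, 1910 and 5788 CPM, so the groups overlapped. The value of 19170 CPM, from a mouse with 6 fitted pericytes, came almost wholly from the single cell with most Acta2 UMIs described above. Among the 10 smooth muscle genes with at least 10 UMIs in both of these libraries, 0 were higher in β1 AT2-KO, beside 903 of all 2098 genes. Their median log2 ratio was -1.17, against -0.07 over all genes and 0.16 for the same genes in endothelial cells. The β1 fl/fl sums behind these pericyte ratios include the cell with most Acta2 UMIs. None of the 10 list members tested passed the edgeR test between mice, where 1 of all 420 genes was called (0.238%).

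**Figure D3:**
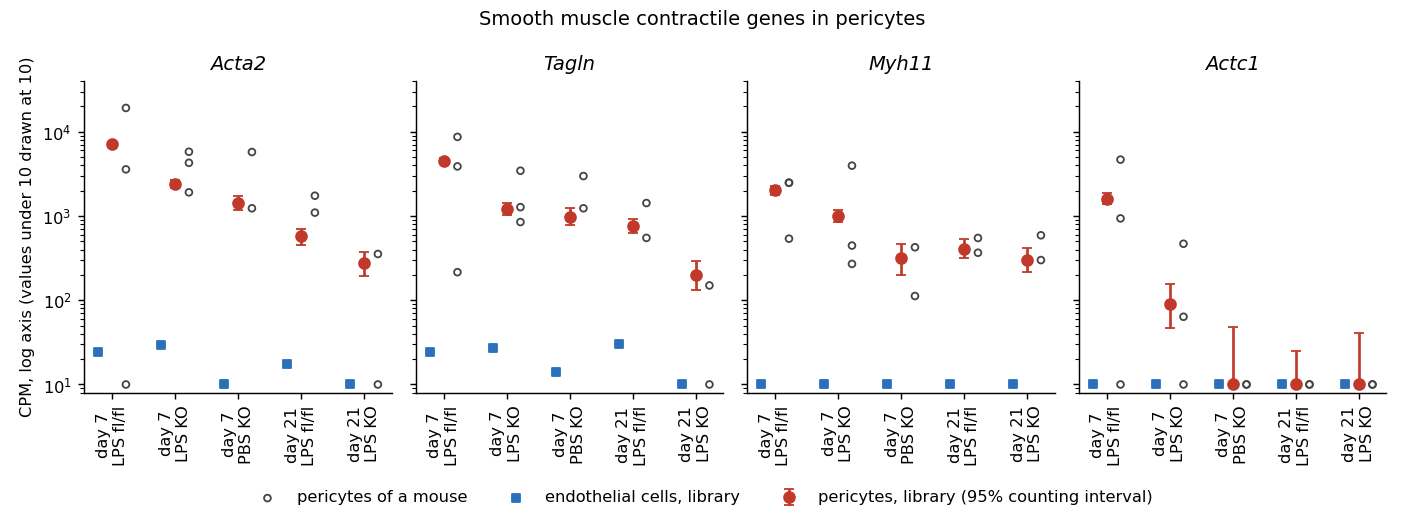
Level of contractile genes in CPM on a log axis for each library (filled points, 95% counting interval), for the pericytes of each mouse (open circles) and for endothelial cells. Acta2 ranged from 7140 CPM in day 7 LPS β1 fl/fl to 274 CPM in day 21 LPS β1 AT2-KO, and the mice within day 7 LPS β1 fl/fl ranged from 0 to 19170 CPM. The value of 19170 CPM came almost wholly from a single cell.

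Immediate early genes, transcription factors and regulators that cells induce within minutes of a stimulus or of tissue digestion, also varied between pericyte libraries, in another order. Junb, a subunit of AP-1, stood at 77, 941, 1399, 2647 and 215 CPM. Fos, its partner, stood at 77, 1105, 1739, 2458 and 371 CPM and Egr1 at 34, 784, 1713, 2182 and 208 CPM. Day 7 LPS β1 fl/fl was lowest for all of them and day 21 LPS β1 fl/fl highest. In endothelial cells of the same libraries Junb ranged from 811 to 2024 CPM, and the levels in day 7 LPS β1 fl/fl were 811 CPM for Junb, 984 CPM for Fos and 503 CPM for Egr1.

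The signal was carried by part of the cells. At least 5 UMIs of Fos, Junb and Egr1 together were found in 0 of 38, 11 of 60, 8 of 38, 20 of 73 and 3 of 63 pericytes, and the interval for 0 of 38 reached 9.25%. Of these 42 cells 10 were singly tagged, so most of them enter no comparison over mice. Between the day 7 LPS libraries 7 of 7 immediate early genes with at least 10 UMIs in both were higher in β1 AT2-KO, beside 903 of all 2098 genes. Their median log2 ratio was 1.39, against 0.53 for the same genes in endothelial cells and -0.07 over all genes. Against PBS β1 AT2-KO, 3 of 16 were higher in LPS β1 AT2-KO, beside 539 of all 1551 genes (median -0.61, all genes -0.20). Over the mice of that comparison the median turned, to 1.38 for the 6 members that edgeR could test. None of them was called, beside 1 of all 420 genes (0.238%). At day 21, 0 of 13 were higher in β1 AT2-KO, beside 1180 of all 2397 genes. The median was -1.77, against -0.51 in endothelial cells and -0.02 over all genes. The digestion or sorting of a library and its condition cannot be told apart here.

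**Figure D4:**
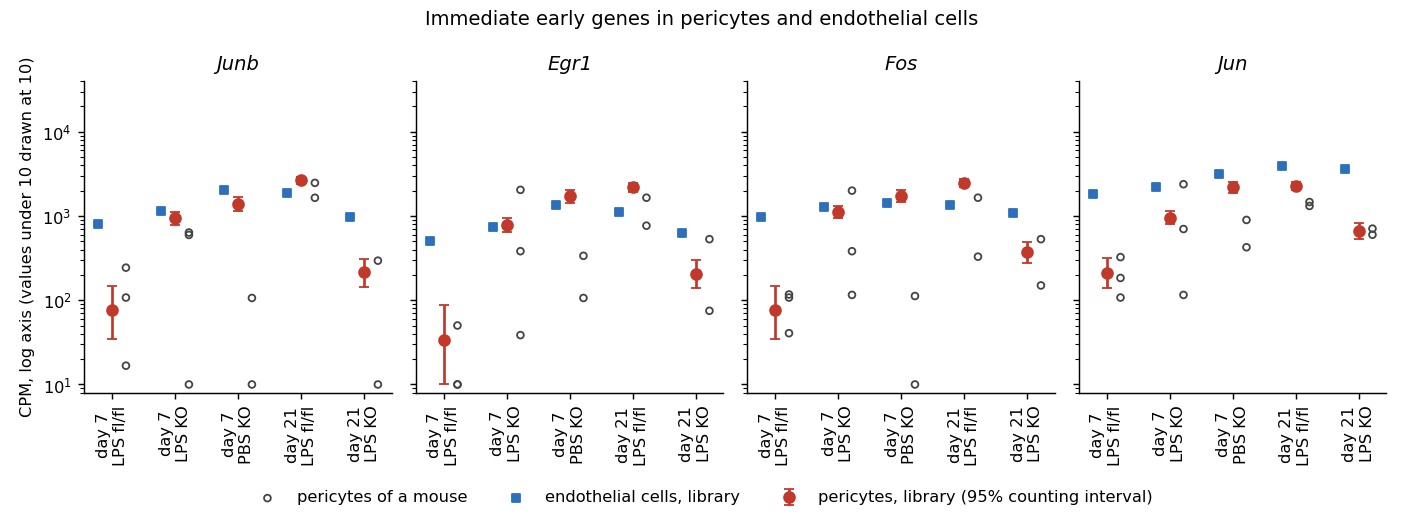
Level of immediate early genes in CPM on a log axis for each library (filled points, 95% counting interval), for the pericytes of each mouse (open circles) and for endothelial cells (squares). Junb stood at 77 CPM in day 7 LPS β1 fl/fl and 2647 CPM in day 21 LPS β1 fl/fl, while endothelial cells stayed between 811 and 2024 CPM.

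The first comparison asked how pericytes differed between genotypes 7 days after LPS. Tuba1a, an α-tubulin, was higher in β1 AT2-KO, at 2428, 1273 and 1787 CPM in its mice against 215, 162 and 217 CPM in β1 fl/fl, with no overlap. The log2 fold change was 3.19 ± 0.431 (SE) and the edgeR adjusted p 0.000747. It was the 1 gene called among 420 tested (0.238%), and 18 genes had an unadjusted p under 0.05. The same difference was present in endothelial cells, at 928 against 129 CPM (log2 ratio 2.84), and the pericyte change did not differ detectably from the endothelial one (difference 0.16 ± 0.65, adjusted p = 1). Tuba1a lies at chr15:98949837-98953703 in mm10 and has close paralogues whose reads it can share. The call of Tuba1a held in every alternative run. Day 7 PBS β1 AT2-KO pericytes also had Tuba1a high, at 1948 CPM, and both day 21 libraries had it at 445 and 489 CPM.

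In the same comparison the mice did not overlap for 249 of 2410 genes of at least 100 CPM in either library (10.3%). By library ratio the largest of these in β1 AT2-KO, after Tuba1a, was Cyr61, a matricellular protein induced by serum and stretch, at 642 against 94 CPM, followed by the class II invariant chain Cd74 at 209 against 26 CPM. The part of RNA from other cells in the Cd74 value was not tested. Xist and Ddx3x, both X-linked genes that females express at a higher level, were among the lowest in β1 AT2-KO, and so was the tetraspanin Cd9. The direct test of whether pericytes changed unlike endothelial cells called 1 of 11192 genes (0.00893%). Genes entered it on pericyte and endothelial counts together, and in pericytes alone only 420 had enough counts to be tested. For most of the 11192 genes a pericyte change could therefore hardly be detected. The called gene was Actc1, whose change in pericytes differed from that in endothelial cells by -3.87 ± 0.681 (SE, log2, edgeR adjusted p = 0.000146). The β1 fl/fl mice had Actc1 at 0, 4671 and 936 CPM and the β1 AT2-KO mice at 0, 64 and 468 CPM, so the groups overlapped and the values rested on 5 of 38 cells in β1 fl/fl.

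The second comparison set LPS against PBS within β1 AT2-KO at day 7, where the libraries also differed in Xist (0 and 196 CPM). Of 420 genes tested, 1 was called (0.238%), and 28 had an unadjusted p under 0.05. Sftpc, the surfactant protein C gene of AT2 cells, stood at 2428, 2610 and 3277 CPM in the LPS mice and 319 and 449 CPM in the PBS mice (log2 fold change 2.93 ± 0.566, edgeR adjusted p = 0.0426), a call that was lost without any 1 of the 5 mice. It differed in the same direction in endothelial cells, at 4179 and 748 CPM, and the summed level of 10 epithelial genes in pericytes ranged from 484 to 18097 CPM over the 5 libraries. Epithelial RNA outside AT2 cells and transcription in pericytes cannot be told apart.

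Spp1, the osteopontin gene, differed between pericytes and endothelial cells in that comparison. In pericytes it stood at 193, 191 and 1277 CPM in the LPS mice and at 2340 and 7743 CPM in the PBS mice, with no overlap, and the libraries stood at 582 and 7988 CPM. The endothelial level was 14 and 6 CPM. In pericytes alone the log2 fold change was -3.04 ± 0.90 and was not called (edgeR adjusted p = 0.541). The test against endothelial cells called Spp1 alone among 11192 genes (0.00893%), with a difference of -3.84 ± 0.682 (SE, log2, edgeR adjusted p = 0.000207). Most of these genes had too few counts in pericytes alone to be tested. Spp1 was also present in the other libraries, at 1518 CPM in day 7 LPS β1 fl/fl and 3253 and 3016 CPM at day 21. It was seen in 26.7 to 57.1% of pericytes of a library, and the smooth muscle cells of day 7 LPS β1 AT2-KO had it at 4888 CPM. In this comparison the mice did not overlap for 633 of 2528 genes of at least 100 CPM (25.0%), which is the share to read the Spp1 separation against. Col6a3, a chain of collagen VI, stood at 231 against 0 CPM and the integrin gene Itga8 at 187 against 13 CPM, both with mice that did not overlap and neither called.

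**Figure D5:**
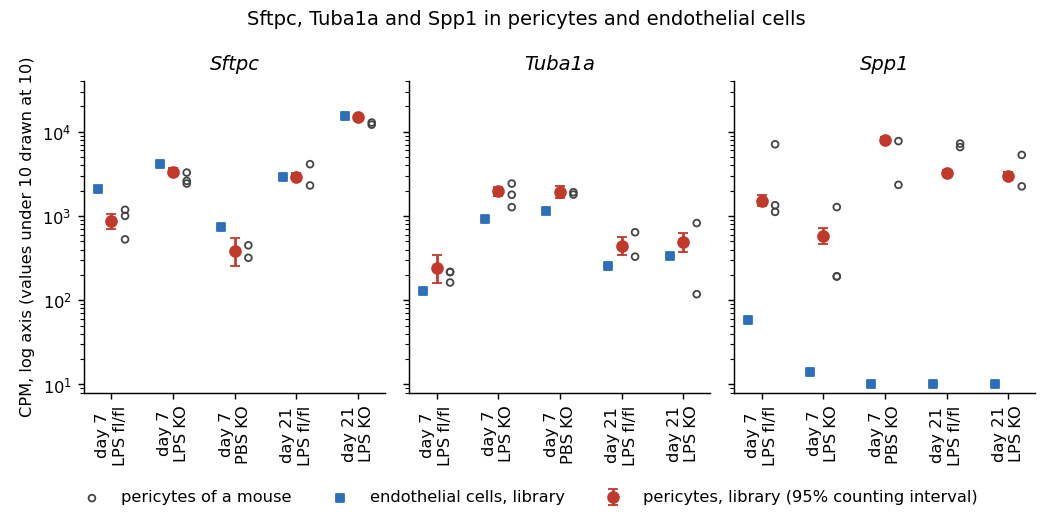
Level of Sftpc, Tuba1a and Spp1 in CPM on a log axis, with values under 10 drawn at 10, by library (filled points, 95% counting interval), by mouse (open circles) and in endothelial cells (squares). Tuba1a and Sftpc passed a test in pericytes, and Spp1 passed only the test of the pericyte against the endothelial change. Tuba1a and Sftpc in endothelial cells followed the pericyte libraries, and Spp1 did not, with endothelial levels of 3 to 58 CPM.

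The third comparison asked how pericytes differed between genotypes 21 days after LPS. With 2 mice a group, 4 of 138 genes were called (2.9%) and 11 had an unadjusted p under 0.05. Mustn1, a small nuclear protein of muscle and smooth muscle, fell from 2851 and 1007 CPM in β1 fl/fl mice to 59 and 0 CPM in β1 AT2-KO mice (log2 fold change -5.31 ± 0.930, edgeR adjusted p = 2.59e-05). Junb fell from 1645 and 2473 CPM to 295 and 0 CPM (-3.39 ± 0.633, adjusted p = 5.66e-05), although this call was lost without the second β1 fl/fl mouse. Acta2 fell from 1096 and 1740 CPM to 354 and 0 CPM (-2.60 ± 0.788, adjusted p = 0.0499), a call that was lost without 3 of the 4 mice. The differences were smaller among the pericytes without a single tag (63 and 49 cells) for the muscle genes, with Acta2 at 436 CPM in β1 fl/fl and 311 CPM in β1 AT2-KO and Mustn1 at 343 and 110 CPM. In the tagged cells (10 and 14) Mustn1 stood at 1846 and 28.3 CPM. Junb stood at 2733 and 241 CPM in the cells without a single tag. The one gene that rose was Sftpc (2302 and 4121 CPM to 12859 and 12135 CPM, log2 fold change 2.14 ± 0.445, adjusted p = 0.000306), and its endothelial log2 ratio was 2.41. Without the first β1 fl/fl mouse the Sftpc call was lost too, and Mustn1 was not among the genes tested. The edgeR test called 0 genes when at least 5 marker UMIs were required (13 at an unadjusted p under 0.05) or when 1 UMI of an excluded gene was allowed (38 at that p), and DESeq2 called Sftpc alone.

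Of the lists, the immediate early genes had 1 of 4 tested members lower (Junb), the smooth muscle genes 1 of 3 and the fibrillar matrix genes 1 of 2 (Acta2, which is on both lists), and the epithelial genes 1 of 1 higher (Sftpc). These are the called genes named above, sorted by list, beside 4 called of all 138 genes tested (2.9%). No member of the pericyte, vascular tone or basement membrane lists passed, out of 9, 5 and 6 tested. Mice did not overlap for 815 of 2412 genes of at least 100 CPM (33.8%). Among these, the nuclear receptor gene Nr4a1, an immediate early gene, stood at 296 and 7 CPM by library. The extracellular superoxide dismutase Sod3 had a log2 ratio of -3.33 of its CPM plus 20, and Cd74 was at 54 and 660 CPM. The next largest rises after Cd74 were Cxcl15, Sftpc, Chil1 and Sftpa1. The 4 epithelial genes with at least 10 UMIs in both libraries had a median log2 ratio of 2.21, and 2.29 in endothelial cells. The part of RNA from other cells in the Cd74 rise was not tested. In the test against endothelial cells edgeR called 0 of 6317 genes (0.0%), with 111 at an unadjusted p under 0.05. Only 138 genes had enough counts in pericytes alone to be tested, so for most of the 6317 a pericyte change could hardly be detected.

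Of the 244 cells that carried Tcf21, Pi16 or Dpt, 89 were in day 21 β1 fl/fl and 41 in day 21 β1 AT2-KO. With them put back, the fitted mice held 8 and 12 singly tagged cells in β1 fl/fl and 5, 11 and 11 in β1 AT2-KO. The β1 AT2-KO mouse with 5 had only 2 before and was not in the main fit, so the set of mice changed too. In this fit 391 genes could be tested at day 21 and 18 were called (4.6%), 14 lower and 4 higher in β1 AT2-KO. At day 7 the same change left 1 of 1298 genes called between genotypes and 0 of 1298 for LPS over PBS. Of the lower genes 6 were on the immediate early list, namely Junb, Fos, Jun, Egr1, Ier2 and Btg2, and Acta2 and Tagln were on the smooth muscle list. This only sorts the called genes, since the list members tested in this fit were not counted. When instead 1 UMI of an excluded gene was allowed, edgeR called 0 of 410 genes at day 21. Mustn1 and the stress genes Ppp1r15a and Hspa1a were also among the lower genes. Junb fell by 4.36 ± 0.568 on the log2 scale (edgeR adjusted p = 2.39e-05) and Tagln fell by 4.02 ± 0.671 (adjusted p = 0.000247). The higher genes were Sftpc, Sftpa1 and Lyz2, which AT2 cells express, and the ribosomal-RNA-derived Gm42418. Whether the genotype difference itself changed between day 7 and day 21 was tested directly: edgeR called 0 of 309 genes (0.0%, 13 at an unadjusted p under 0.05) in the pericytes kept, and 2 of 713 (0.281%), Junb and Hspa1a, with those cells put back.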

How the data were processed

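The deposited tables held raw UMI counts per gene and barcode, made by the authors with Cell Ranger 3.1 (mm10) from 5 droplet libraries of the 10x 5′ assay; hashtag counts were in the same tables. The removal of background RNA and doublets named in the methods is not in these counts. Members and lists were chosen with earlier results of these data known. Comparison cells were gated likewise (20960 endothelial, 192 smooth muscle and 211 alveolar fibroblasts, the last by a gate chosen after seeing the data). Cells with Cox4i2 or Higd1b were left out of each of these gates. Barcodes were gated on UMIs, summed per library and mouse, and expressed as CPM. A mouse was assigned where exactly 1 hashtag passed 4 times its background and 10 UMIs. Mouse sums were tested with edgeR 4.0.16 (R 4.3.3; TMM, quasi-likelihood test, Benjamini-Hochberg, called at an adjusted p under 0.05), after a check on simulated data. A minimum of 10 pericytes a mouse was planned; it left no residual degrees of freedom, so 4 was used. Whole-list changes were not tested. Genes were named by fixed rules: the rule's markers, pericyte genes, abundant members of lists, called genes and, where under 5 were called, the 6 largest library ratios each way among genes whose mice did not overlap; other genes were named after their values were seen. Shares used exact permutation tests (scipy 1.17.1). Mice of a group shared a library, so p-values measure the spread between mice within libraries. Alternatives included DESeq2 1.42.0, Scrublet, stricter gates and leaving out each mouse. Promoters came from RefSeq (GRCm38.p6), gene positions from GENCODE vM21.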

Additional observations from a re-analysis of the deposited data

Results flagged for a closer look

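A direct test of a difference between effects passed for 4 genes. Actc1 changed in day 7 LPS β1 AT2-KO over β1 fl/fl pericytes by -3.87 (log2) relative to endothelial cells of the same mice. Its pericyte levels overlapped between the mice of the 2 groups, and the β1 fl/fl level rested on few cells. Spp1 changed in day 7 LPS over PBS β1 AT2-KO pericytes by -3.84 relative to endothelial cells. Neither Actc1 nor Spp1 was called in pericytes alone in the main fit. With cells carrying Tcf21, Pi16 or Dpt put back, the genotype difference at day 21 minus that at day 7 was -6.35 ± 1.24 (SE, log2) for Junb and -5.89 ± 1.11 for Hspa1a, an inducible heat-shock protein gene (edgeR adjusted p = 0.0405 for both). Added EPCAM-positive cells and a separate preparation also set day 21 apart from day 7, and their part in these values was not tested.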

How the results depend on the processing

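Log2 fold changes of the genes called kept their sign under every alternative run. Tuba1a kept its call in all of them, at 2.99 to 3.46. The share difference of LPS β1 AT2-KO minus β1 fl/fl at day 7 (0.373 percentage points) reversed to -0.121 when cells were thinned to 2000 UMIs, and at day 21 (-1.21) it reversed to 0.527 among cells without an Epcam UMI. The day 7 difference from PBS β1 AT2-KO (0.390) became 0.772 when 1 UMI of an excluded gene was allowed, 0.864 with Tcf21, Pi16 and Dpt cells kept and 0.233 when thinned; the day 21 difference became -3.39 and -3.86 under the first of these and the second. Leaving out single mice gave 0.266 to 0.562, 0.256 to 0.580 and -1.82 to -0.811 for these 3 differences. The day 7 genotype count of 1 called gene became 8 with no filter on low counts, 3 with at least 5 marker UMIs, 8 with 1 UMI of an excluded gene and 9 with hashtags at 8 times background, a fit that sets 1 β1 AT2-KO mouse against 2 β1 fl/fl mice and assumes that the lone mouse varies like the others. The LPS over PBS count of 1 became 0 with the DESeq2 test (14 genes at an unadjusted p under 0.05), 4 with only the compared libraries, 2 with 1 UMI of an excluded gene, 0 without Scrublet doublets and 0 with Tcf21, Pi16 and Dpt cells kept (edgeR, 26 and 73 genes at that p). The day 21 count of 4 became 1 with DESeq2, 0 with at least 5 marker UMIs and 0 with 1 UMI of an excluded gene by edgeR (13 and 38 genes at an unadjusted p under 0.05), 18 with Tcf21, Pi16 and Dpt cells kept and 25 when those mice also needed 10 cells, which leaves 1 β1 fl/fl mouse against 2 under the same assumption. Without single mice the counts were 1 to 1, 0 to 0 and 1 to 5, and in groups of 2 the mouse left is assumed to vary like the others. The cause of these changes was not tested. The alternatives with Tcf21, Pi16 and Dpt cells and the minimum of 4 cells were chosen after seeing the data. The hashtag at 8 times background could not be run for the other comparisons. No paired analysis was possible because hashtag numbers name different mice in each library. Few pericytes per mouse limit detection.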
